A study of Mus musculus with 12 samples.

Results

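The mGluR6 signalling complex of ON bipolar cells was examined in retinal explants through 9 genes: Grm6, Trpm1, Gpr179, Nyx, Lrit3, Rgs7, Rgs11, Gnao1 and Pcp2. They were chosen from the known cascade, found by matching the symbol to the Ensembl identifier, and make up 9 of the 53707 genes in the deposited table. All 9 passed the filter on low counts, which left 21061 genes for testing.

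ON bipolar cells take their light signal from photoreceptors through a metabotropic glutamate receptor, mGluR6. In darkness, glutamate released by rods and cones keeps mGluR6 active, its G protein Go keeps the cation channel TRPM1 closed, and the cell stays hyperpolarized. Light stops the release, regulators of G protein signalling (RGS proteins) end the action of Go, TRPM1 opens and the cell depolarizes. Loss of several of these proteins abolishes the b-wave of the electroretinogram and is known as a cause of congenital stationary night blindness.

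RNA-seq was performed on whole retinas of wild-type C57BL/6J mice at postnatal day 28, freed of sclera and pigment epithelium and cultured for 48 hours in Neurobasal-A medium that held either 5 mM or 25 mM glucose. Each concentration had 3 biological replicates, and each replicate had 2 technical replicates, the first labelled batch 1 and the second batch 2, giving 12 libraries with totals between 14815284 and 36692484 counts. What a technical replicate repeated, and whether a biological replicate was 1 retina or several, is not given in the sources used here, so p-values measure the spread between these samples. In whole retina, fewer bipolar cells and less RNA per bipolar cell cannot be told apart. Markers of ON bipolar cells were present in every library (10 of 10 tested, summed level 889 to 1700 CPM). CPM are counts scaled to library size. Markers of rods were present too (13 of 13, summed 3033 to 12479 CPM). Pigment epithelium markers summed to 6.91 to 13.9 CPM, and 7 of these 9 passed the filter, all but Rpe65 and Pmel.

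The genes lie on 7 chromosomes of GRCm38. Grm6 (ENSMUSG00000000617), the receptor, lies at chr11:50850685-50866208 on the plus strand, and Trpm1 (ENSMUSG00000030523), the channel, at chr7:64153835-64269775 on the plus strand. Gpr179 (ENSMUSG00000070337, chr11:97332109-97352077, minus strand) encodes an orphan receptor that anchors the RGS proteins at the dendritic tip. Nyx (ENSMUSG00000051228, chrX:13466110-13489313, plus strand) encodes nyctalopin, a leucine-rich repeat protein that TRPM1 needs to reach the tip, and Lrit3 (ENSMUSG00000093865, chr3:129787881-129804030, minus strand) encodes a second leucine-rich repeat protein, one made by photoreceptors and needed on the opposite side of the synapse. Rgs7 (ENSMUSG00000026527, chr1:175059087-175492500, minus strand) and Rgs11 (ENSMUSG00000024186, chr17:26202951-26211324, plus strand) encode the RGS proteins, and Gnao1 (ENSMUSG00000031748, chr8:93809966-93969388, plus strand) the alpha subunit of Go, which most neurons also make. Pcp2 (ENSMUSG00000004630, chr8:3623371-3625545, minus strand) encodes a small protein that binds the Go alpha subunit in bipolar cells and in Purkinje cells. Exons of Grm6, Trpm1, Rgs11, Gnao1 and Pcp2 overlap a gene on the opposite strand (Gm12660, Gm44722, Arhgdig, 4930488L21Rik and Pet100, respectively). The sources used here do not say if reads were counted by strand, so counts of these 5 genes are less certain than those of Gpr179, Nyx, Lrit3 and Rgs7, which overlap no other gene.

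Promoter sequences from RefSeq (GRCm38.p6), 250 bases before to 50 bases after a start site, were found for 8 of the 9 genes, with 12 promoters in all. Those of Grm6, Trpm1, Gpr179 and Pcp2 are shown because these genes moved together between batches, and that of Lrit3 because it was the gene called with glucose. They are written 5′ to 3′ on the gene's strand, at chr11:50850435-50850734 (Grm6, plus), chr7:64153585-64153884 (Trpm1, plus), chr11:97352307-97352606 (Gpr179, minus), chr8:3625233-3625532 (Pcp2, minus, 1 of its 4 RefSeq starts) and chr3:129804087-129804386 (Lrit3, minus). Capitals mark a match to 1 of 4 motifs searched on both strands: TAATCC (core of OTX2 and CRX sites), TAATTA (homeodomain sites), CATATG (an E-box) and GGGCGG (a GC box).
Grm6: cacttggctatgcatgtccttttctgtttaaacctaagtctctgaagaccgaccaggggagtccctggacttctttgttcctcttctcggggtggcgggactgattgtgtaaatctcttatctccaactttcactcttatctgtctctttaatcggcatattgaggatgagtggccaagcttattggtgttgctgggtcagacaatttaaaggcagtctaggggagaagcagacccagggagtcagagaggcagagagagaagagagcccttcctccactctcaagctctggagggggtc
Trpm1: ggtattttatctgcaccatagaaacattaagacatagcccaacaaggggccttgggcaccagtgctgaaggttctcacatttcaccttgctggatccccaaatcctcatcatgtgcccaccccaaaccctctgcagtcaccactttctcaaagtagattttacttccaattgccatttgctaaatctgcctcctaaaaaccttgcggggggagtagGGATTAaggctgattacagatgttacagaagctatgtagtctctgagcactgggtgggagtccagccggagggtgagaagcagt
Gpr179: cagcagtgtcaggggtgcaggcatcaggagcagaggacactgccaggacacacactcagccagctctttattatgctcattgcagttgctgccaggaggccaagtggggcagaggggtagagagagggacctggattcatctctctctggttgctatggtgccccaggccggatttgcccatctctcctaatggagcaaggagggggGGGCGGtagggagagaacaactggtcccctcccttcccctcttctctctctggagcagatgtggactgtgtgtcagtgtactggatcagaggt
Pcp2: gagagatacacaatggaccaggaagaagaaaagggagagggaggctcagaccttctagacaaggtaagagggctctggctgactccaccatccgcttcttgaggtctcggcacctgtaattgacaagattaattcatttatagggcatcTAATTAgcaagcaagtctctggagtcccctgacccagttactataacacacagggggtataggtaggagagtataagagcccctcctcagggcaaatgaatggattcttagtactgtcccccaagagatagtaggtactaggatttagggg
Lrit3: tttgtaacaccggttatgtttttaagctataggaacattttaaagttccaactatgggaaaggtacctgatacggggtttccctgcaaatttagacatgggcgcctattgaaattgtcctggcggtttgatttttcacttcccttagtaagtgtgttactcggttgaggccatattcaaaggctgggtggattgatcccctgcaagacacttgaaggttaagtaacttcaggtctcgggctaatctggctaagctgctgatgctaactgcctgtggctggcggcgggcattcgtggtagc
TAATCC stood in 1 of the 12 promoters, the Trpm1 promoter shown (1 of its 2 RefSeq starts), where it reads as its reverse complement, and in 7.06% of 32851 promoters of the same length. TAATTA stood in 1, the Pcp2 promoter shown, against 5.29% of all promoters. GGGCGG stood in 1, that of Gpr179, against 35.7%, and CATATG in 0, against 3.91%.

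Per kilobase of merged exons, Trpm1 was the most abundant of the 9 at 5 mM glucose and Lrit3 the least. Trpm1 stood at 36.8 ± 1.27 CPM per kb (mean ± SD, n = 3 summed replicates throughout), followed by Pcp2 at 30.4 ± 16.4, Gnao1 at 22.7 ± 5.24, Rgs7 at 13.6 ± 3.97, Grm6 at 9.51 ± 1.25, Gpr179 at 7.20 ± 1.90, Rgs11 at 5.82 ± 1.40, Nyx at 4.12 ± 1.00 and Lrit3 at 1.55 ± 0.32. The ranges of neighbouring genes overlapped from Trpm1 to Gnao1, between Rgs7 and Grm6, and from Gpr179 to Nyx, and were apart between Gnao1 and Rgs7, between Grm6 and Gpr179, and between Nyx and Lrit3. At 25 mM glucose Trpm1 remained first at 35.9 ± 3.44 CPM per kb, while Lrit3 stood seventh at 6.83 ± 2.79, above Rgs11 (5.46 ± 1.63) and Nyx (4.33 ± 0.70) and overlapping Gpr179 (6.93 ± 2.12). The order from Pcp2 to Gpr179 was otherwise that at 5 mM, with 15.5 ± 4.53 for Pcp2, 14.8 ± 2.08 for Gnao1, 14.4 ± 1.00 for Rgs7 and 13.7 ± 4.56 for Grm6, which all overlapped. When each gene's length was instead weighted by the counts of its transcripts, 5 of the 9 places at 5 mM were the same.

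When the technical replicates of each biological replicate were summed, 1 of the 9 genes, Lrit3, differed between 25 and 5 mM glucose at an FDR (adjusted p) under 0.05 in edgeR's quasi-likelihood test. Over all genes, 1.47% were called higher and 0.513% lower at 25 mM. The median log2 fold change of the 9 genes was -0.04, beside -0.0095 over all genes tested, and single genes ranged from -0.97 (Pcp2) to 2.14 (Lrit3). The summed replicates of 25 and 5 mM did not overlap for Lrit3 and Gnao1, 2 of the 9, against 31.8% of all genes.

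Lrit3 rose with glucose. Its summed replicates stood at 4.7, 4.8 and 3.2 CPM at 5 mM and at 27.5, 14.3 and 14.2 CPM at 25 mM, so that the lowest 25 mM value was above the highest 5 mM value. The log2 fold change was 2.14 (SE 0.34, FDR 0.0330). Its direction was the same under 23 of 23 alternative settings, and 17 of them also gave an FDR under 0.05. The call was lost without 5 mM replicate 2 (log2 fold change 2.23, FDR 0.128), 5 mM replicate 3 (1.96, FDR 0.159), 25 mM replicate 1 (1.76, FDR 0.119) or 25 mM replicate 2 (2.31, FDR 0.113), and in each of these 4 fits 0 genes of the whole table were called. Rod markers moved in the same direction as Lrit3, with 6 of 13 called higher and 0 lower (median log2 fold change 0.99), among them the rod channel gene Cnga1 (2.12, FDR 0.0261), the phosphodiesterase gene Pde6b (1.65, FDR 0.0217), the rod transcription factor gene Nrl (1.33, FDR 0.0261) and Prph2 (1.28, FDR 0.0456). Whether rod RNA had a part in the Lrit3 result was not tested.

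The other leucine-rich repeat gene, Nyx, gave 27.3, 18.4 and 18.3 CPM at 5 mM and 26.6, 20.1 and 20.7 CPM at 25 mM, with a log2 fold change of 0.07 (SE 0.24, FDR 0.858). The 25 mM values lay within the 5 mM range. The anchor Gpr179 stood at 47.9, 77.2 and 81.1 CPM at 5 mM and at 88.4, 48.8 and 61.3 CPM at 25 mM, and its log2 fold change was -0.05 (SE 0.28, FDR 0.914).

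The receptor gene Grm6 gave 59.4, 47.8 and 47.4 CPM at 5 mM and 99.8, 72.4 and 50.4 CPM at 25 mM. Its log2 fold change of 0.53 (SE 0.25) did not pass the test (FDR 0.210), and the lowest 25 mM replicate lay within the 5 mM range. The channel gene Trpm1 had the log2 fold change nearest to 0, at 543, 523 and 560 CPM at 5 mM and at 587, 506 and 493 CPM at 25 mM (log2 fold change -0.04, SE 0.17, FDR 0.904).

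Among the G protein genes, Gnao1 stood at 315, 203 and 235 CPM at 5 mM and at 137, 176 and 178 CPM at 25 mM. All 3 values at 25 mM lay below those at 5 mM, and the log2 fold change was -0.62 (SE 0.21), but the FDR of 0.111 missed the threshold. The only setting that passed it was a fit on the 12 single libraries with batch as a term (-0.68, FDR 0.0455), which counts the 2 technical replicates of a sample as separate and called 2918 genes of the table in place of 417. Pcp2 gave 23.3, 82.6 and 61.0 CPM at 5 mM and 37.5, 21.4 and 26.2 CPM at 25 mM, with a log2 fold change of -0.97 (SE 0.43, FDR 0.177). One 5 mM replicate of Pcp2 lay inside the 25 mM range. Without 1 replicate the log2 fold change lay between -1.34 and -0.58 and the FDR between 0.0147 and 0.471, with the threshold passed only without 5 mM replicate 1, in a fit that called 5845 genes of the table. Without 5 mM replicate 2 the value was -0.58. Counts summed over its transcripts, in place of the deposited gene counts, gave -0.36 for Pcp2.

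The RGS genes did not pass the test. Rgs7 stood at 108.5, 62.4 and 74.6 CPM at 5 mM and at 90.4, 90.1 and 79.8 CPM at 25 mM (log2 fold change 0.08, SE 0.22, FDR 0.819). Rgs11 stood at 18.3, 30.0 and 25.2 CPM at 5 mM and at 30.9, 18.5 and 19.6 CPM at 25 mM (log2 fold change -0.09, SE 0.28, FDR 0.850). The 25 mM values of Rgs7 lay within the 5 mM range, and the ranges of Rgs11 nearly coincided.

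Split by batch, the same biological replicates gave opposite signs for 7 of the 9 genes. In batch 1, 3 of the 9 genes were called higher at 25 mM glucose (Grm6, Lrit3 and Rgs11) and 0 lower, where 7.16% of the 18969 genes tested were called higher and 10.1% lower, and the median log2 fold change of the 9 genes was 0.66. In batch 2, 0 of the 9 genes and 0 of 18811 genes were called by edgeR's quasi-likelihood test. At an unadjusted p under 0.05, batch 2 gave 2203 genes and 5 of the 9. The median log2 fold change of all 9 in batch 2 was -0.62. The signs of Grm6, Trpm1, Gpr179, Nyx, Rgs7, Rgs11 and Pcp2 were positive in batch 1 and negative in batch 2, whereas Lrit3 was positive and Gnao1 negative in both.

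**Figure D1:**
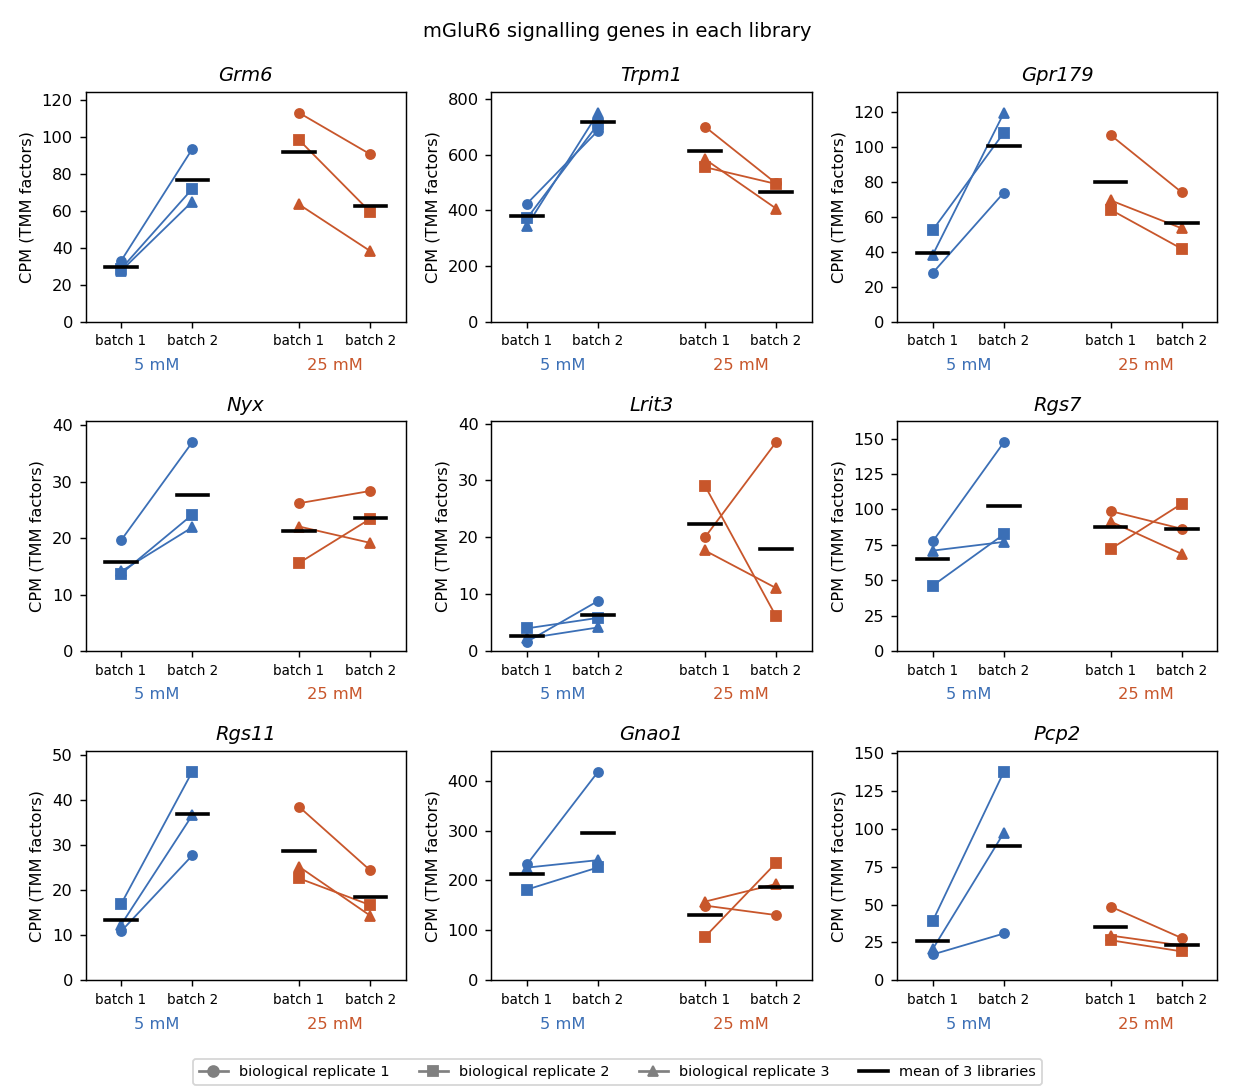
Level of each gene (CPM with TMM factors, linear axes from 0) in the 12 libraries, with the 2 technical replicates of each biological replicate joined by a line and the mean of 3 libraries as a black bar. For Grm6, Trpm1, Gpr179, Rgs11 and Pcp2 all 3 lines rise at 5 mM and all 3 fall at 25 mM.

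The 5 and 25 mM libraries of Grm6 were apart in batch 1 and overlapped in batch 2. In batch 1 its level was 33.0, 28.6 and 27.5 CPM at 5 mM and 113, 98.5 and 63.5 CPM at 25 mM, which did not overlap (log2 fold change 1.60, SE 0.26, FDR 0.00958). In batch 2 it was 93.6, 72.0 and 65.1 CPM at 5 mM and 90.8, 59.5 and 38.3 CPM at 25 mM (-0.31, SE 0.32, FDR 0.659). From batch 1 to batch 2 the level of the same replicate was multiplied by 2.37 to 2.84 at 5 mM and by 0.602 to 0.802 at 25 mM.

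For Trpm1 the groups were apart in both batches, in opposite order. In batch 1 it stood at 424, 371 and 345 CPM at 5 mM and at 702, 556 and 585 CPM at 25 mM (log2 fold change 0.66, FDR 0.0677), and in batch 2 at 687, 711 and 751 CPM at 5 mM and at 498, 495 and 407 CPM at 25 mM (-0.62, FDR 0.392). The steady value of the summed replicates therefore combined a higher and a lower level at 25 mM. Rgs11 did likewise, with 10.9, 17.0 and 12.4 CPM at 5 mM against 38.6, 22.7 and 25.3 CPM at 25 mM in batch 1 (1.08, FDR 0.0430), and with 27.8, 46.4 and 36.7 CPM at 5 mM against 24.4, 16.7 and 14.4 CPM at 25 mM in batch 2 (-1.01, FDR 0.392).

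Gpr179 stood at 27.9, 52.4 and 38.2 CPM at 5 mM and at 107, 64.0 and 69.4 CPM at 25 mM in batch 1 (log2 fold change 1.00, FDR 0.0525), with no overlap. In batch 2 the order was reversed, at 73.9, 108 and 119 CPM at 5 mM and at 73.9, 41.6 and 53.3 CPM at 25 mM (-0.84, FDR 0.395), with the highest 25 mM library level with the lowest 5 mM library. For Pcp2, the batch 1 values of 17.1, 39.2 and 20.7 CPM at 5 mM overlapped those of 48.6, 26.5 and 29.6 CPM at 25 mM (0.42, FDR 0.455). In batch 2, Pcp2 reached 30.9, 138 and 97.4 CPM at 5 mM and 27.9, 19.1 and 23.0 CPM at 25 mM (-1.93, FDR 0.391), so that the lower level of Pcp2 at 25 mM was seen in batch 2 and not in batch 1.

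**Figure D2:**
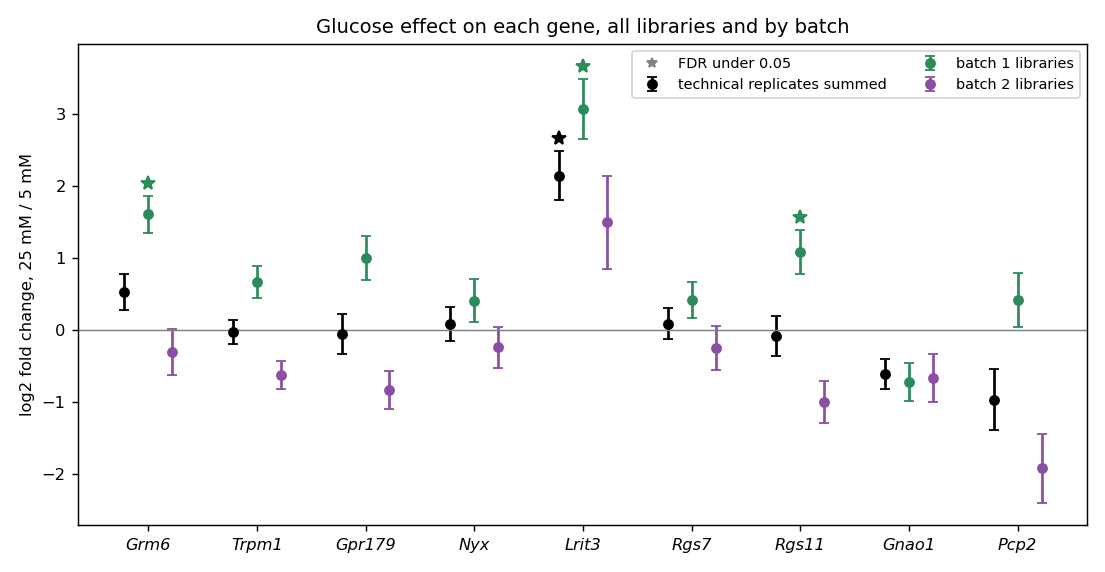
Log2 fold change of each gene at 25 mM against 5 mM glucose with its SE (error bars), from the summed technical replicates (black), batch 1 libraries (green) and batch 2 libraries (purple), where a star marks an FDR under 0.05. Lrit3 is above 0 and Gnao1 below 0 in all 3 fits, and the other 7 genes are above 0 in batch 1 and below 0 in batch 2.

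A test of this difference, on all 12 libraries with the biological replicate as a block, did not reach an FDR under 0.05 for any of 20306 genes in edgeR's quasi-likelihood test, although 3153 had an unadjusted p under 0.05. By the unadjusted p, the glucose effect was lower in batch 2 for 5 of the 9 genes, against 7.78% of all genes. The difference on the log2 scale was -1.94 for Grm6 (SE 0.22, FDR 0.132), -1.31 for Trpm1 (FDR 0.149), -1.87 for Gpr179 (FDR 0.132), -2.08 for Rgs11 (FDR 0.132) and -2.18 for Pcp2 (FDR 0.143). It was -0.62 for Nyx (FDR 0.348), -0.65 for Rgs7 (FDR 0.386), -1.95 for Lrit3 (FDR 0.322) and 0.10 for Gnao1 (FDR 0.934). Under 10 alternative fits the lowest FDR among the 9 genes lay between 0.0676 and 0.551, and 0 genes of the table were called in any of them.

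Counted by replicate, Grm6, Trpm1, Gpr179, Rgs11 and Pcp2, 5 of the 9, were higher in batch 2 than in batch 1 in all 3 replicates at 5 mM and lower in all 3 at 25 mM, a pattern shown by 5.47% of 20306 genes. The share of all genes that met the first condition, the one at 5 mM, was not counted. In the fit of batch 2 over batch 1 at 5 mM, 51.2% of the 20306 genes lay above 0. Nyx, Rgs7, Lrit3 and Gnao1 met only the first condition: each was higher in batch 2 in all 3 replicates at 5 mM and mixed at 25 mM. Lrit3 was the most uneven of these, at 1.6 and 8.8 CPM in batches 1 and 2 of 5 mM replicate 1 and at 29.1 and 6.1 CPM in those of 25 mM replicate 2. With 25 mM replicate 2 taken from its second technical replicate alone, Lrit3 gave a log2 fold change of 1.92 and an FDR of 0.142. Its libraries did not overlap in batch 1 (1.6 to 4.0 CPM at 5 mM, 17.7 to 29.1 CPM at 25 mM) and did in batch 2 (4.1 to 8.8 and 6.1 to 36.7 CPM). Its log2 fold change was 3.07 in batch 1 (FDR 0.00810) and 1.49 in batch 2 (FDR 0.426).

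Gnao1 was lower at 25 mM in both batches, with 232, 182 and 226 CPM at 5 mM against 150, 86.9 and 158 CPM in batch 1 (log2 fold change -0.72, FDR 0.0904), and 418, 226 and 241 CPM against 131, 235 and 193 CPM in batch 2 (-0.67, FDR 0.439). The groups overlapped in batch 2. Nyx and Rgs7 overlapped in both. Nyx ranged from 13.7 to 19.6 CPM at 5 mM and from 15.6 to 26.2 CPM at 25 mM in batch 1, and from 21.9 to 37.0 and from 19.2 to 28.4 CPM in batch 2. Rgs7 ranged from 46.2 to 77.4 and from 72.1 to 98.8 CPM in batch 1, and from 77.1 to 147 and from 68.6 to 104 CPM in batch 2.

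The summed level of the 9 genes was 754 to 844 CPM in batch 1 and 1414 to 1525 CPM in batch 2 at 5 mM, and 971 to 1304 CPM and 828 to 1001 CPM, respectively, at 25 mM. At 5 mM, lists of other bipolar genes had positive medians, as the 9 genes did. Between batches at 5 mM the median log2 fold change of batch 2 over batch 1 was 1.29 for the 9 genes, 0.89 for ON bipolar markers, 1.21 for OFF bipolar markers and 1.10 for markers of both kinds, beside 0.011 over all genes. Cone markers gave 0.73, horizontal cell markers 0.60 and cascade partners, a list that shares genes with the bipolar lists, 0.65. At 25 mM the median was -0.50 for the 9 genes, -0.017 for ON bipolar markers, -0.94 for OFF bipolar markers and -0.27 for both kinds. Over all genes it was -0.030, so the ON bipolar list lay near all genes there. Cone markers gave -0.21, horizontal cell markers -0.27 and cascade partners -0.18 at 25 mM. The cone and horizontal cell lists share no gene with the bipolar lists, so the sign change was not particular to bipolar lists. Rod markers gave 0.10 at 5 mM, and vascular markers had the opposite sign, with a median of -1.01 at 5 mM and 0.78 at 25 mM. The summed level of the 9 vascular markers was 1567 to 2647 CPM in batch 1 and 727 to 1792 CPM in batch 2 at 5 mM, and 580 to 840 CPM and 696 to 1341 CPM at 25 mM. The part of vascular RNA in the result for the 9 genes was not tested.

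**Figure D3:**
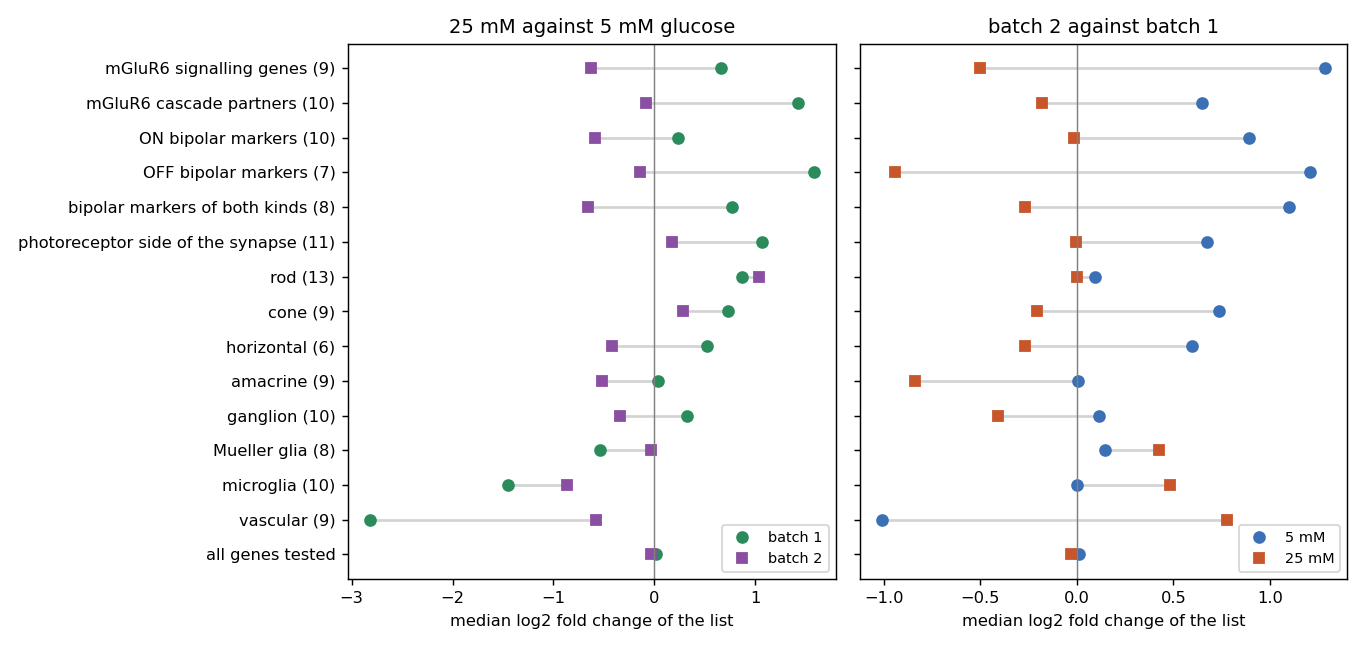
Median log2 fold change of the 9 genes and of lists of related genes and cell type markers (number of genes tested in parentheses), on the left for 25 against 5 mM glucose in each batch and on the right for batch 2 against batch 1 at each concentration. On the left the 9 genes lie at 0.66 in batch 1 and -0.62 in batch 2, near bipolar markers of both kinds (0.77 and -0.65). ON bipolar markers lie at 0.24 and -0.59 and OFF bipolar markers at 1.58 and -0.14. Rod markers lie at 0.87 and 1.04, and all genes tested near 0.

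Of 10 partners of the cascade, 3 were called higher at 25 mM and 0 lower in the summed replicates, with a median log2 fold change of 0.64 (1.42 in batch 1 and -0.08 in batch 2). Rgs9bp, an anchor of RGS proteins, rose from 49.4 ± 13.2 to 191 ± 47.5 CPM (1.96, FDR 0.0261). Lrit2, a relative of Lrit3, rose from 24.4 ± 4.55 to 81.5 ± 17.3 CPM (1.74, FDR 0.0261), and Gnb5, the beta subunit that stabilizes RGS proteins, from 105 ± 3.35 to 244 ± 46.3 CPM (1.22, FDR 0.0302). The log2 fold changes of batches 1 and 2 were positive for all 3 (2.40 and 1.67 for Rgs9bp, 2.08 and 1.49 for Lrit2, 1.68 and 0.90 for Gnb5). Rgs9bp and Gnb5 also form the photoreceptor complex that ends the light response, together with Rgs9, which was the 1 of 14 family relatives called, from 50.2 ± 11.4 to 221 ± 72.9 CPM (2.14, FDR 0.0261). The RGS genes of the bipolar dendrite, Rgs7 and Rgs11, gave 0.08 and -0.09 beside it.

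On the photoreceptor side of the same synapse, 3 of 11 genes were called higher and 0 lower, with a median log2 fold change of 0.40 (1.07 in batch 1 and 0.18 in batch 2). They were Cacna1f, the calcium channel of the photoreceptor terminal (1.58, FDR 0.0380), Egflam, which encodes pikachurin, a matrix protein that binds Gpr179 (1.41, FDR 0.0330), and Cabp4, a calcium sensor of that channel (1.06, FDR 0.0308). Egflam rose from 16.8 ± 1.74 to 44.5 ± 10.4 CPM, while its partner Gpr179 gave a log2 fold change of -0.05.

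The bipolar lists held no called gene in the summed replicates at an FDR under 0.05 (edgeR's quasi-likelihood test). Of 10 ON bipolar markers, 4 had an unadjusted p under 0.05, beside 6052 of all 21061 genes tested. The list's median log2 fold change was -0.28, with single genes from -1.07 to 0.31 and 4 of the 10 above 0. The 2 with the highest level, Prkca and Car8, were both below 0. Prkca, the kinase by which rod bipolar cells are usually stained, gave 391 ± 55.3 CPM at 5 mM and 227 ± 17.3 CPM at 25 mM (-0.79, FDR 0.0581), and it was lower in both batches (-1.06 and -0.66). Under DESeq2, which called 3489 genes of the table in place of 417, Prkca passed the threshold with an FDR of 0.00299. Car8, a rod bipolar gene, gave 370 ± 72.9 and 257 ± 5.80 CPM (-0.53, FDR 0.116).

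Among 7 OFF bipolar markers, 1 had an unadjusted p under 0.05, where 6052 of all 21061 genes tested did. The median of the list was 0.60, and 5 of the 7 lay above 0. Grik1, the kainate receptor of OFF bipolar cells, gave 68.4 ± 59.3 CPM at 5 mM and 196 ± 69.1 CPM at 25 mM. Its log2 fold change was 1.52 (FDR 0.129), with 3.70 in batch 1 and 0.18 in batch 2. Grik1 passed with an FDR of 0.0361 under DESeq2, the fit that called 3489 genes of the table. The lists of bipolar markers of both kinds (4 of 8 at an unadjusted p under 0.05, median -0.05) and of bipolar transcription factors (4 of 11, median 0.10) included Otx2, which gave 135 ± 29.8 and 208 ± 45.9 CPM (0.63, FDR 0.122). In the first list Trnp1 gave 198 ± 6.39 and 161 ± 27.5 CPM (-0.30, FDR 0.2895). Neurod4, in the second, gave 216 ± 114 and 430 ± 164 CPM (1.00, FDR 0.1535).

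In the remaining lists the median log2 fold change of the summed replicates was 0.49 for cone markers (1 of 9 called, Opn1mw), -0.34 for Müller glia, -0.13 for horizontal cells, -0.01 for amacrine cells, 0.20 for ganglion cells, -1.14 for microglia, -1.94 for vascular cells and -0.43 for pigment epithelium, with 0 genes called in the last 7 lists. By edgeR's unadjusted p under 0.05, those 7 lists held 4 of 8, 0 of 6, 4 of 9, 1 of 10, 7 of 10, 7 of 9 and 1 of 7 genes tested. Over the whole table, 6052 of 21061 genes tested had such a p.

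Ratios between 2 genes of the same replicate do not depend on the scaling of libraries. Of these, 10 were compared, and with 3 replicates a group the exact two-sided permutation test cannot go below p = 0.1 (0.167 after adjustment over them). The log2 ratio of Nyx to Lrit3 was 2.54, 1.93 and 2.50 at 5 mM and -0.05, 0.49 and 0.54 at 25 mM, without overlap (exact permutation p = 0.1). That of Gnao1 to Grm6 went from 2.41, 2.08 and 2.31 to 0.46, 1.28 and 1.82, also without overlap (exact permutation p = 0.1), and differed by -2.33 in batch 1 and -0.28 in batch 2. Relative to Prkca, Grm6 went from -2.93, -2.86 and -2.97 to -1.05, -1.72 and -2.22, and Trpm1 from 0.26, 0.59 and 0.59 to 1.50, 1.09 and 1.07 (exact permutation p = 0.1 for each). By batch, the difference was 2.60 and 0.30 for Grm6 against Prkca and 1.70 and 0.04 for Trpm1 against Prkca, larger in batch 1 for both.

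Relative to Grik1, Grm6 went from -1.20, 0.27 and 0.71 at 5 mM to -1.40, -1.46 and -1.32 at 25 mM (exact permutation p = 0.1). The value of 5 mM replicate 1 lay close to those at 25 mM. The mean difference was -1.32, with -2.43 in batch 1 and -0.63 in batch 2. Groups overlapped for Grm6 to Trpm1 (difference 0.52, exact permutation p = 0.2), Pcp2 to Grm6 (-1.30, p = 0.2 by exact permutation), Gpr179 to Grm6 (-0.54, p = 0.3 by exact permutation) and Rgs11 to Rgs7 (-0.22, p = 0.8 by exact permutation). Rgs11 to Rgs7 turned from 0.64 in batch 1 to -0.80 in batch 2.

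The transcript counts showed which annotated forms made up each gene. Nyx had 1 transcript only, and Gpr179 was nearly all its full coding form (96.8 ± 1.5% at 5 mM and 98.4 ± 0.71% at 25 mM). For Trpm1, the coding form Trpm1-201 held 57.9 ± 1.8% and 60.3 ± 4.3% of counts, and forms with a retained intron 19.9 ± 0.84% and 19.9 ± 1.8%. Lrit3 was mostly Lrit3-202 (84.6 ± 11.6% and 92.1 ± 1.3%). Counts of Grm6 went for 55.3 ± 14.6% at 5 mM and 65.7 ± 6.6% at 25 mM to forms annotated as processed transcripts, and those of its 2 coding forms shifted between replicates, so their split was poorly determined. Pcp2 was similarly unsettled: Pcp2-202 took 81.2, 30.7 and 39.8% at 5 mM and 75.7, 85.6 and 67.9% at 25 mM.

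The 9 genes gave 22 shares of transcript types, of which 4, all of Rgs11 and Rgs7, reached the smallest exact permutation p (0.44 after adjustment over the 22). Shares of a gene sum to 100%, so the 22 are not independent. The coding and retained-intron shares of Rgs7 mirror each other, and those of Rgs11 nearly do, so the 4 are not separate results. Rgs11 counts lay largely in forms with a retained intron, and the share of its coding forms was 16.4, 13.5 and 19.6% at 5 mM and 8.85, 10.8 and 7.37% at 25 mM, without overlap (exact permutation p = 0.1, the smallest possible). The lower coding share of Rgs11 was seen in each batch, at 15.0 ± 3.9% against 8.79 ± 2.5% in batch 1 and at 17.0 ± 4.2% against 9.34 ± 1.1% in batch 2. The retained-intron form of Rgs7 held 21.7, 17.9 and 20.8% of its counts at 5 mM and 27.8, 30.3 and 23.8% at 25 mM, again without overlap (exact permutation p = 0.1), and the batches gave 21.4 ± 6.9% against 28.9 ± 6.6% and 19.1 ± 3.6% against 26.5 ± 5.5%. Within each batch the Rgs7 libraries overlapped. For Gnao1 the retained-intron share was 7.68 ± 5.4% and 13.1 ± 4.0% (exact permutation p = 0.3). These shares come from the authors' estimated counts of overlapping forms, and in total RNA a read in an intron may also come from unspliced RNA.

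**Figure D4:**
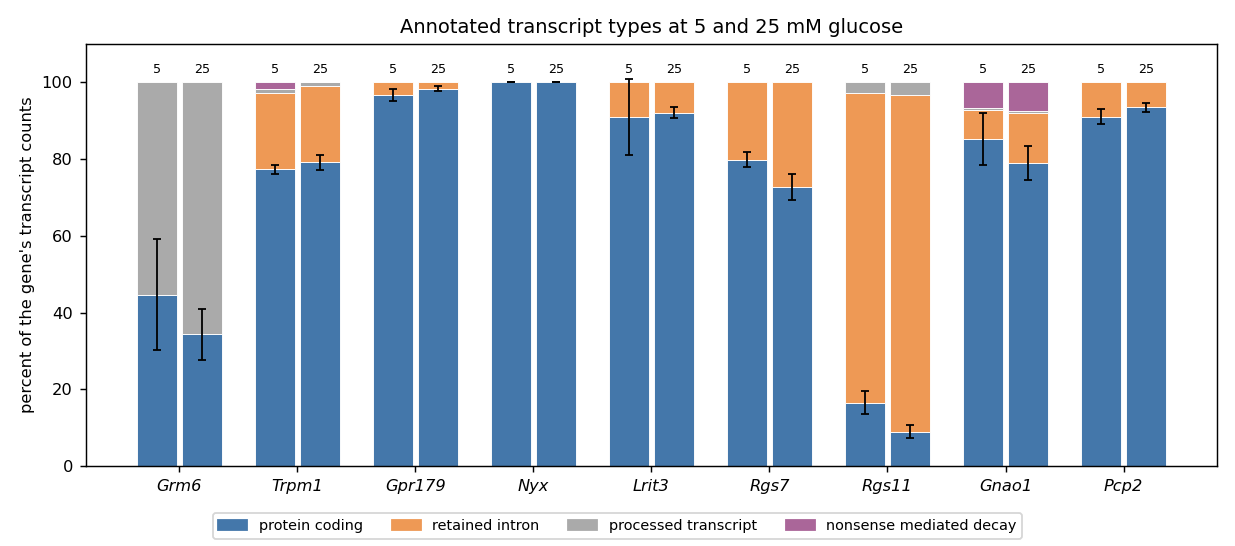
Share of each gene's transcript counts (percent, mean of 3 summed replicates) by annotated transcript type at 5 mM (left bar) and 25 mM glucose (right bar), with the SD of the protein-coding share as error bars. Rgs11 is mostly retained intron, with a coding share of 16.5% at 5 mM and 9.01% at 25 mM, and Gpr179 and Nyx are nearly all coding.

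Over the 12 libraries, the search for similar profiles started from 16418 genes and left out the 9 themselves and genes without a symbol. Genes most like the mean of the 9 were sought by root mean square difference of standardized log2 CPM (0 is an identical profile). They were Gng13 (0.32), Cacna1h (0.33), Lactbl1 (0.33), Asic3 (0.34), Ccdc136 (0.34) and Kcnh6 (0.38). Of the 9 themselves, Rgs11 (0.36), Trpm1 (0.41), Gpr179 (0.44) and Grm6 (0.44) lay closest to their mean and Gnao1 farthest (1.43). Most like Grm6 alone were Isl1 (0.24), Tmem215 (0.24), Rnf182 (0.25), Gm4792 (0.25), Lactbl1 (0.27) and Lrtm1 (0.29). Isl1, a transcription factor of ON bipolar cells, gave log2 fold changes of 1.07 in batch 1 and -0.37 in batch 2, and Gng13, the gamma subunit of the bipolar Go, 1.16 and -0.45. Over the 6 summed replicates, 0 of the 6 genes were the same for either profile.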

How the data were processed

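Total RNA of 12 explant libraries was measured by RNA-seq. The authors deposited estimated counts (expected counts) per gene and per transcript, with no normalization across libraries and each technical replicate in its own column. The kit was a stranded, low-input one for total RNA, read as paired ends. The submitters' processing notes name GRCm 38, and the counting tool and annotation are not given in the sources used here. Gene counts differed from summed transcript counts by a median of 3.85% over 15084 genes, so the gene table may not hold plain read sums. Of the gene identifiers, 48766 (90.8%) found a symbol in GENCODE M21 (GRCm38).

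Technical replicates were summed per biological replicate, rounded, filtered with filterByExpr, scaled by TMM and tested in edgeR 4.0.16 (R 4.3.3) by quasi-likelihood in its version 3 form, with Benjamini-Hochberg adjustment over all genes tested and no replicate block. Each batch was fitted alone, and the difference between batches on 12 libraries with the replicate as a block. The labels do not say if replicate numbers pair the 2 glucose groups. The correlations of same-numbered replicates, each group centred on its mean, were -0.0134, -0.449 and 0.285. With 3 centred replicates a group these values depend on one another, so they cannot decide if the groups were paired. The model was tested on simulated data. DESeq2 1.42.0, limma 3.58.1, other scalings and filters, GC and length offsets, transcript sums and omission of replicates served as alternatives. Ratios used a pseudocount of 0.5 counts, and 1 of the 10 compared is not reported here. Library totals set counting error only, since amplified reads carried no molecular identifiers that were used. The 9 genes and all lists were chosen with earlier results of these data known. Every one of the 9 was described in full. Names from other lists were taken from the genes past the threshold (at most 4, by size of change) or else the 2 with the highest level, and the genes most like the 9 were the 6 nearest.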

Additional observations from a re-analysis of the deposited data

Results flagged for a closer look

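For 5 of the 9 genes the glucose effect differed between the batches by the unadjusted p of the quasi-likelihood test of edgeR, and in every replicate the change from batch 1 to batch 2 went opposite ways at 5 and 25 mM. The difference of the log2 fold change, batch 2 minus batch 1, was -1.94 for Grm6, -1.31 for Trpm1, -1.87 for Gpr179, -2.08 for Rgs11 and -2.18 for Pcp2. None passed adjustment over 20306 genes.

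In 3 of 18 groups of 6 libraries, 1 library stood apart from the others of its gene and glucose level. Chance would give about 0.9 if the 6 libraries were independent. They are 2 technical replicates of each of 3 samples, in 2 batches, so that figure does not apply as it stands. Rgs7 reached 147 CPM in batch 2 of 5 mM replicate 1, Gnao1 reached 418 CPM in that same library, and Pcp2 reached 48.6 CPM in batch 1 of 25 mM replicate 1.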

How the results depend on the processing

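The number of the 9 genes called was 1 in the summed replicates, 2 with 12 libraries and a batch term (Lrit3 and Gnao1), 3 in batch 1 alone, 0 in batch 2 alone, 2 with a replicate block and GC and length offsets (Lrit3 and Grm6, FDR 0.0463), 0 with 25 mM replicate 2 from its second technical replicate only, and 0 to 2 when 1 replicate was left out. The median log2 fold change of the 9 was 0.66 in batch 1 and -0.62 in batch 2, and 5 of 9 places per length stayed with weighted lengths. The replicate block alone kept 1 gene called, and raised the calls among all genes from 417 to 990. All genes called numbered 3489 with DESeq2, 1979 unfiltered, 2918 with 12 libraries, 2708 and 3157 with offsets, 1731 with 5 mM replicate 1 from its first technical replicate only, 0 at a fold change over 2 and FDR under 0.01, and 0 to 5845 when a replicate was left out. The share of calls that were higher was 74.1% in the summed replicates, 83.7% with library totals, 42.4% with DESeq2 and 40.9% with the block. Settings with single technical replicates and equal depth were chosen after the data were seen.

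Genes near 0 changed sign. Trpm1 gave 0.024 (library totals), 0.015 (1 CPM filter), 0.036 (12 libraries), 0.66 (batch 1), 0.13 (offsets), 0.12 (block with offsets), 0.062 (5 mM replicate 1 from its first technical replicate) and -0.11 to 0.0086 without 1 replicate. Gpr179, in the same order without the filter, gave 0.0018, 0.091, 1.00, 0.35, 0.34 and 0.088, with 0.14 from transcript sums and -0.31 to 0.13 without 1 replicate. Rgs11 gave 0.052 (12 libraries), 1.08 (batch 1), 0.29, 0.25, 0.055 and 0.0099 (transcript sums), and -0.35 to 0.071 without 1 replicate. Nyx gave -0.24 in batch 2, -0.0053 at equal depth and -0.058 to 0.29 without 1 replicate. Rgs7 gave -0.26 in batch 2, -0.03 under both offset fits (-0.032 and -0.027) and -0.087 to 0.34 without 1 replicate. Grm6 was -0.31 in batch 2 and Pcp2 0.42 in batch 1. For Lrit3 (1.49 to 3.07) and Gnao1 (-0.76 to -0.42) the direction was the same in 23 of 23 settings. The cause of these shifts was not tested.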
